A study of Bos taurus with 13 samples.

Results

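EV-coupled miRNAs in follicular fluid (FF) of cows that stayed in negative energy balance were compared with those of heifers. Always negative cows (ANCs) were lactating Holstein Friesian cows whose serum non-esterified fatty acids and beta-hydroxybutyrate stayed high from week 5 to week 10 after calving, and their FF was taken at weeks 5 and 6. Heifers of the same breed had not calved, were labelled as in positive energy balance and were sampled by ovum pick-up in 5 consecutive weeks, and the age of either group is not given in the sources used here. The ANC fluid came from 2 cows in 2 pools and the heifer fluid from 8 animals in 3 pools, so 5 of the 13 libraries of the series were used. Which animals went into which pool is not stated, so p-values measure the spread between these pools. Both groups were untreated, and energy status, lactation and a previous pregnancy change together between them and cannot be told apart.

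miRNAs are short RNAs that guide Argonaute proteins to messenger RNAs and lower their output. In the antral follicle they are made by granulosa and theca cells, and part of them leaves these cells in extracellular vesicles (EVs), membrane-bound particles that collect in FF and can be taken up by other follicular cells and the cumulus-oocyte complex. FF is also a filtrate of plasma, so it receives miRNAs of blood cells, liver and other tissues. In EV RNA, fewer vesicles from a source and less of a miRNA in each vesicle cannot be told apart.

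Of 311 miRNAs listed in any library of the series, 273 were listed for ANCs, 296 for heifers and 267 for both. The 29 miRNAs listed for heifers and not for ANCs had at most 13 reads in any heifer pool, and the 6 listed for ANCs and not for heifers had at most 2 reads. A miRNA that is not listed need not be absent, since the paper gives a nonzero level in ANCs for miR-193b, listed here for heifers only. The reads assigned to listed miRNAs, recovered from the deposited values, numbered 222091 and 145030 in ANC pools 1 and 2, and 183575, 379970 and 346845 in heifer pools 1, 2 and 3. An abundance of 3 reads, taken as the smallest visible, corresponded to 13.51 and 20.69 CPM (reads of a miRNA scaled to a common library total) in the ANC pools and to 7.9 to 16.34 CPM in the heifer pools, and it covers counting error only. Levels below are CPM scaled over these 5 pools, and 215 of the 267 miRNAs had enough reads to be tested. The other 52 had at most 25 reads in any pool.

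Before the groups are compared, the pools of a group need comparing with each other. Heifer pools 1 and 2 were alike, with a median absolute difference of 0.33 on the log2 scale over 215 miRNAs. Heifer pool 3 stood apart from them, at 0.52 and 0.53, which is as far as it stood from ANC pool 2 (0.52). The ANC pools differed from each other by 0.51, and ANC pool 1 differed from the heifer pools by 0.80, 0.86 and 0.64. The result of the comparison depended on single pools. Without ANC pool 1 none of 237 tested miRNAs passed, although 44 had an unadjusted limma p-value under 0.05, and without ANC pool 2, heifer pool 1, heifer pool 2 or heifer pool 3, 49, 6, 17 and 54 miRNAs passed.

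In all 5 pools, 40 of 215 tested miRNAs (18.6%) were differentially expressed (DE), that is, by limma their log2 fold change was 1 or more in either direction with a p-value under 0.05, and after adjustment the p-value did not exceed 0.25. In ANCs 26 miRNAs (12.1%) were downregulated and 14 (6.51%) were upregulated. With DESeq2 size factors the split was 29 to 9. Enough reads in the pools of 1 group sufficed for a test, so some DE miRNAs were tested only through the group in which they were high. Of the 40, 29 had at least 10 reads in every library, and with that demand 17 miRNAs were downregulated and 12 upregulated among 166 tested. The lowest adjusted p-value by limma was 0.0749 and the highest among the DE miRNAs was 0.225. None thus passed at 0.05 after adjustment in this fit, while 47 had an unadjusted limma p-value under 0.05. With other processing of the 5 pools the lowest adjusted p-value varied. It was 0.0155 by limma with scaling to total reads, 0.129 by edgeR and 0.00032 by DESeq2. edgeR and DESeq2 on the recovered reads called 35 and 39. The median log2 fold change of all tested miRNAs was 0.00. The groups did not overlap for any of the 40 DE miRNAs, against 102 of all 215 (47.4%, of which 48 or 22.3% were higher and 54 or 25.1% lower in ANCs). Each of the 40 kept its direction in every alternative in which it was tested. Without overlap, leaving out a pool cannot turn a direction unless the rescaling does, so the kept directions do not measure stability.

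**Figure D1:**
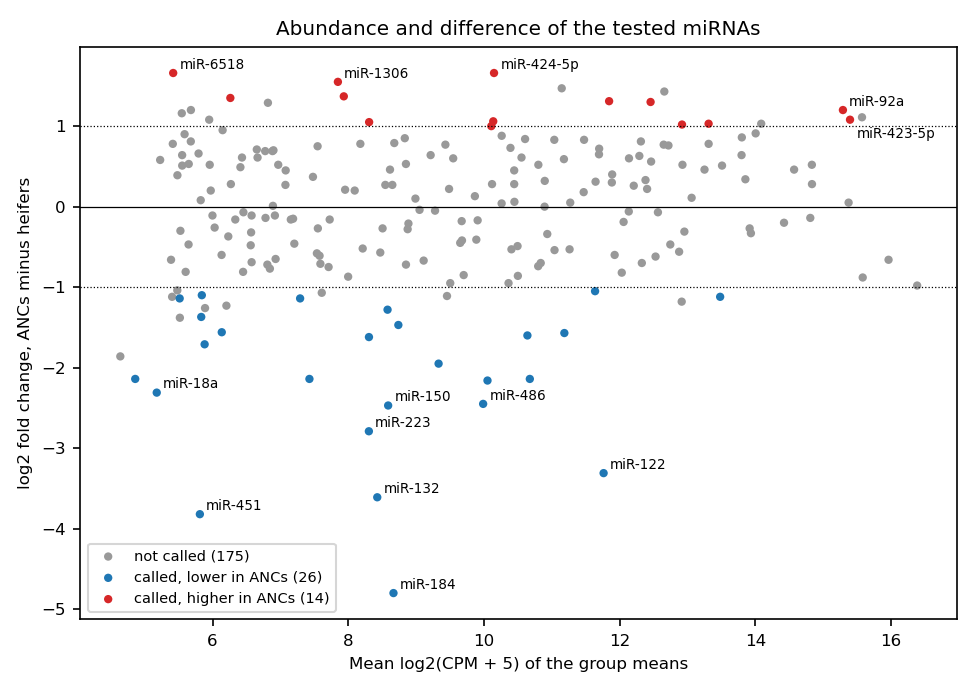
Each point is 1 of the 215 tested miRNAs. The horizontal axis is the mean of the 2 group means of log2(CPM + 5), the vertical axis is the log2 fold change of ANCs against heifers, and dotted lines mark a change of 1 in either direction. Downregulated miRNAs (26, blue) reach a log2 fold change of -4.80 at low and middle abundance, while the 14 upregulated ones (red) stay at or under 1.66 and include miR-92a and miR-423-5p at the right edge.

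Downregulated and upregulated miRNAs differed in size of change and in abundance. Among the 26 downregulated miRNAs the log2 fold changes ran from -4.80 to -1.05, and ANC pool 1 lay below ANC pool 2 for 21 of them, against 119 of all 215 tested. Across the 14 upregulated miRNAs the log2 fold changes did not exceed 1.66, and heifer pool 3 was the heifer pool nearest to the ANCs for 13 of them. For these miRNAs the nearest heifer pool is the highest one. How often heifer pool 3 was the highest among all tested miRNAs was not counted. The nearest pools of the 2 groups were a median of 1.82-fold apart for the downregulated and 1.46-fold apart for the upregulated miRNAs. The smallest gap was 1.02-fold for miR-1839 and the largest 3.59-fold for miR-223.

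Most white blood cell miRNAs were lower in ANCs. Of 7 tested members of the leukocyte list 5 were downregulated, beside 12.1% of all tested miRNAs, and none upregulated, with a median log2 fold change of -2.14 against 0.00 for all tested miRNAs. miR-223, a regulator of neutrophil and monocyte maturation, was at 75.4 and 174 CPM in ANC pools 1 and 2 and at 627, 1307 and 690 CPM in heifer pools 1, 2 and 3. Its mean in heifers was 7.00-fold that in ANCs (log2 fold change -2.79, SE 0.50, limma adjusted p = 0.0749). The 3.59-fold gap between the nearest pools was the widest of the 40 DE miRNAs. miR-150, which is abundant in mature lymphocytes, stood at 92.1 and 270 CPM in ANCs and at 697, 961 and 1091 CPM in heifers. Both ANC pools were thus under every heifer pool, with a log2 fold change of -2.47 (SE 0.50, limma adjusted p = 0.0749).

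The other 3 downregulated members of the list belong to the same blood cell lineages or to their inflammatory response. miR-142-5p, made in all haematopoietic cells, was at 280 and 880 CPM in ANCs and at 2557, 2606 and 1683 CPM in heifers (log2 fold change -2.16, SE 0.52). miR-155, which rises in activated lymphocytes and macrophages, was at 285 and 365 CPM against 827, 1089 and 2226 CPM (-1.95, SE 0.47). miR-146a, a brake on NF-kB signalling, was at 46.0 and 127 CPM against 221, 395 and 516 CPM (-2.14, SE 0.54). Heifer pool 1 was the lowest heifer pool for miR-155 and miR-146a, whereas heifer pool 3 was the lowest for miR-142-5p. The last 2 members were not DE. miR-146b, a paralogue of miR-146a, was at 406 and 404 CPM in ANCs and at 246, 618 and 248 CPM in heifers (0.27, SE 0.48). miR-342, the most abundant of the list, was at 4915 and 4599 CPM against 7250, 8113 and 6707 CPM (-0.62, SE 0.32, limma adjusted p = 0.245). The other arm, miR-142-3p, had 2 and 7 reads in the ANC pools and 2, 6 and 8 reads in the heifer pools and was not tested. At these few reads its mean was higher in ANCs, at 31.9 against 16.4 CPM. Summed, the list held 0.657% and 0.598% of the reads of the ANC pools and 1.29% to 1.52% of those of the heifer pools, and no tested member was at 0. Without ANC pool 1 none of the list passed and its median was -1.40, and without heifer pool 1 it kept 4 DE members.

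Red blood cell miRNAs were also lower, and here the ANC pools differed from each other. Both tested members of the erythroid list were downregulated, beside 12.1% of all tested miRNAs. miR-451, which makes up much of the miRNA of red blood cells, had 0 and 5 reads in the ANC pools and 75, 67 and 45 reads in the heifer pools, that is, 0 and 39.6 CPM against 376, 175 and 133 CPM (log2 fold change -3.82, SE 0.90, limma adjusted p = 0.0749). miR-486, transcribed within ANK1, the gene of an erythrocyte membrane protein, was at 138 and 1316 CPM in ANCs and at 3640, 2087 and 1745 CPM in heifers (-2.45, SE 0.83, limma adjusted p = 0.138). ANC pool 2 thus came within 1.33-fold of heifer pool 3 for miR-486, whereas ANC pool 1 was far below all others. miR-144, the neighbour of miR-451, was listed for heifers only, with 2, 4 and 1 reads, and its reads in ANCs are not known. Erythroid reads were 0.0149% and 0.118% of the ANC pools and 0.184% to 0.437% of the heifer pools. FF with blood contamination had been left out by the authors, and residual blood in single pools was not tested. Without ANC pool 1 or without heifer pool 1 neither miRNA passed, and the change of miR-486 was -0.84 at its smallest.

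**Figure D2:**
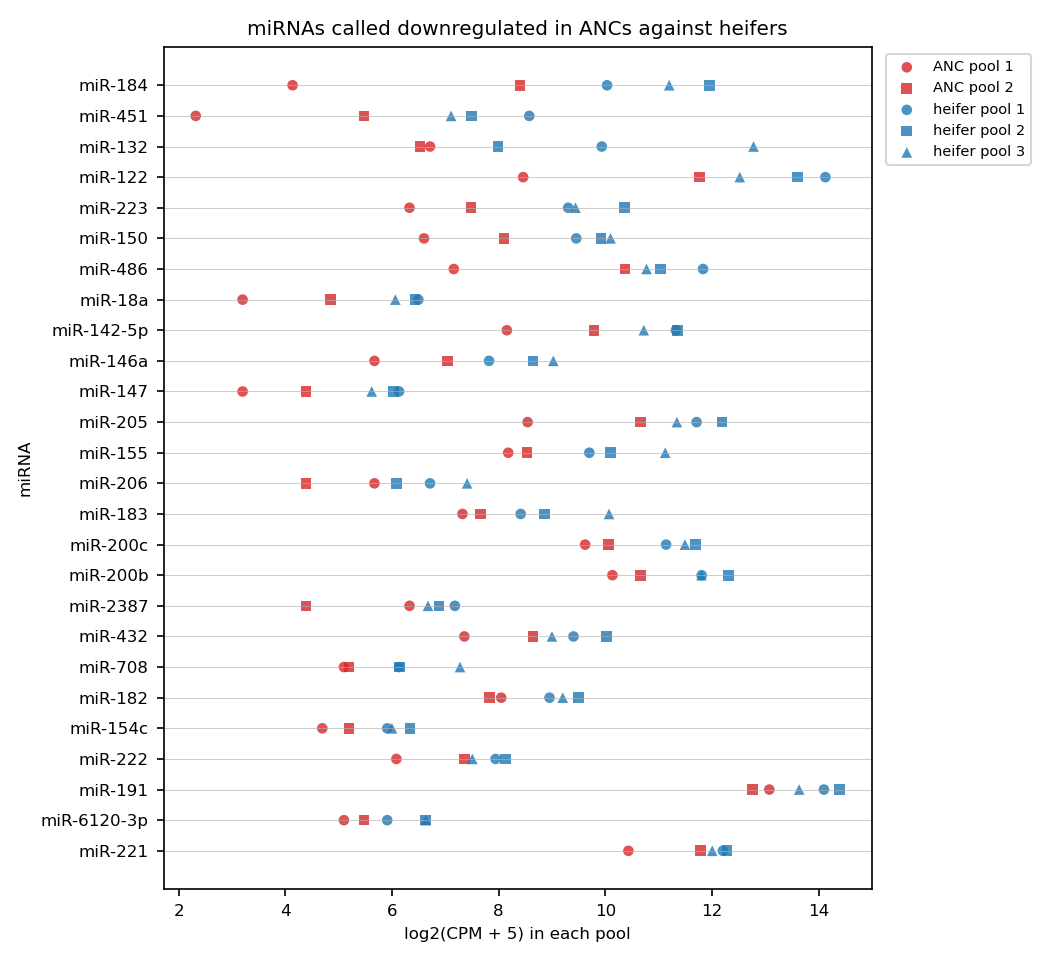
All 26 miRNAs downregulated in ANCs, sorted by log2 fold change, with log2(CPM + 5) on the horizontal axis. Red symbols are the ANC pools, blue symbols the heifer pools, and the symbol shape gives the pool number. Every red symbol lies to the left of every blue one in its row, and ANC pool 1 (red circle) is the leftmost in 21 rows.

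The liver miRNA was lower as well. miR-122, the dominant miRNA of hepatocytes, was at 347 and 3465 CPM in ANC pools 1 and 2, and at 17879, 12432 and 5872 CPM in heifer pools 1, 2 and 3 (log2 fold change -3.31, SE 0.89, limma adjusted p = 0.0971). Its share of reads was 0.0374% and 0.301% in ANCs and between 0.575% and 1.94% in heifers. The pools varied widely within each group, and the nearest ones, ANC pool 2 and heifer pool 3, were 1.69-fold apart. Without ANC pool 1 the change was -1.66 and miR-122 did not pass, nor did it pass without heifer pool 1. The miRNAs shared by liver, gut and kidney, namely miR-192, miR-194 and miR-215, were not DE. miR-192 was at 3144 and 8333 CPM in ANCs and at 15914, 15713 and 6282 CPM in heifers, where heifer pool 3 fell between the ANC pools (-1.18, SE 0.56, limma adjusted p = 0.245).

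Epithelial miRNAs were the other large group among the downregulated ones. The miR-200 family keeps epithelial cells from turning mesenchymal by repressing ZEB1 and ZEB2. Of its 5 tested members miR-200b and miR-200c were downregulated, beside 12.1% of all tested miRNAs, and the remaining members did not pass. The log2 fold changes were -0.82 for miR-200a and -0.95 for miR-429. miR-141 was at 285 and 785 CPM in ANCs against 767, 1273 and 1100 CPM in heifers. miR-200b was at 1118 and 1618 CPM in ANCs and at 3575, 5052 and 3567 CPM in heifers (log2 fold change -1.57, SE 0.36, limma adjusted p = 0.0749). miR-200c was at 783 and 1062 CPM against 2251, 3292 and 2877 CPM (-1.60, SE 0.36, limma adjusted p = 0.0749). For both, the ANC pools were close to each other and at least 2.12-fold under the nearest heifer pool. The family held 0.544% and 0.706% of reads in the ANC pools and 1.27% to 1.88% in the heifer pools. miR-200c and its genomic neighbour miR-141 come from 1 transcript, and miR-200b shares another with miR-200a and miR-429, so the family represents 2 loci. No member passed without ANC pool 1, and only miR-200c did without heifer pool 1.

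Among the other miRNAs known from epithelia, 4 of 5 tested were downregulated, beside 12.1% of all tested miRNAs, and the remaining one, miR-31, lay on the other side. miR-184, best known from the cornea and lens, showed the largest change of the comparison. It had 3 and 42 reads in ANC pools 1 and 2 and 208, 1518 and 795 reads in the heifer pools, that is, 12.6 and 333 CPM against 1043, 3975 and 2344 CPM (log2 fold change -4.80, SE 1.11, limma adjusted p = 0.0749). The ANC pools were 3.13-fold or more under the lowest heifer pool but differed widely from each other, and without ANC pool 1 the change was -2.66 and did not pass. miR-205, a miRNA of stratified and glandular epithelia, was at 368 and 1618 CPM in ANCs and at 3349, 4667 and 2591 CPM in heifers (-2.14, SE 0.61). miR-183 was at 155 and 198 CPM against 336, 461 and 1070 CPM (-1.62, SE 0.52), and its cluster partner miR-182 was at 260 and 222 CPM against 491, 720 and 584 CPM (-1.28, SE 0.36). These cluster partners, known from sensory and neural epithelia, differed little between the ANC pools. miR-96, the last of that cluster, had at most 6 reads in any pool and was not tested. miR-31, at 4283 and 3362 CPM in ANCs and 2166, 2032 and 2190 CPM in heifers, was above every heifer pool in both ANC pools, yet its log2 fold change of 0.83 (SE 0.33, limma adjusted p = 0.194) was under the threshold. Without heifer pool 1 only miR-184 of this list passed, and without ANC pool 1 none did.

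Of the miRNAs tied to follicular function, miR-132 was downregulated and the others did not pass. miR-132, which the luteinizing hormone (LH) surge induces in granulosa cells, was at 100 and 87.2 CPM in the ANC pools and at 973, 249 and 7022 CPM in the heifer pools (log2 fold change -3.61, SE 1.14, limma adjusted p = 0.128). The ANC pools were close to each other, whereas the heifer pools spread widely, with heifer pool 3 far above the others. It did not pass without ANC pool 1 or without heifer pool 1, and its change was -2.34 at its smallest. miR-21-5p, also LH-induced and a suppressor of granulosa cell apoptosis, was the most abundant miRNA over the 5 pools, at 53183 and 69895 CPM in ANCs and 90911, 141790 and 134346 CPM in heifers. It was at rank 3 in ANCs and at rank 1 in heifers, and its log2 fold change of -0.98 (SE 0.32, limma adjusted p = 0.138) fell just short of 1. The passenger arm miR-21-3p had 1 read in each ANC pool and 11, 7 and 13 reads in the heifer pools and was not tested. miR-202, whose expression is largely limited to gonads, was abundant in every pool, at 7414 and 9491 CPM in ANCs and 4748, 3577 and 6960 CPM in heifers. It was higher in both ANC pools than in any heifer pool, without passing (0.77, SE 0.39, limma adjusted p = 0.245).

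Heifer pool 3 also differed from the other pools in miRNAs of ciliated epithelium. miR-34c was at 575 CPM in heifer pool 3 and at 23.8 to 75.4 CPM in the other 4 pools, and miR-449a had 25 reads in heifer pool 3, 4 in ANC pool 2 and 0 in the other 3 pools. Neither was DE (miR-449a was not tested). The high miR-132 of heifer pool 3 is from the same library, and the part of the ciliated signal in it was not tested.

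An X-linked cluster was among the upregulated miRNAs. The miR-424 cluster, which holds miR-424, miR-503, miR-542 and miR-450 and is known for control of the cell cycle, had 3 of 7 tested members upregulated, beside 6.51% of all tested miRNAs, and none downregulated, with a median log2 fold change of 1.06. miR-424-5p was at 2156 and 1879 CPM in the ANC pools and at 491, 571 and 905 CPM in the heifer pools (log2 fold change 1.66, SE 0.38, limma adjusted p = 0.0749). It was the only upregulated miRNA whose nearest pools were at least 2-fold apart (2.08-fold). miR-542-5p was at 381 and 396 CPM in ANCs against 123 to 206 CPM in heifers (1.37, SE 0.39), and miR-450b at 1779 and 1475 CPM against 712, 775 and 843 CPM (1.06, SE 0.33). The ANC pools lay close together for all of these. The members were not all alike, since miR-503-5p was at 163 and 103 CPM in ANCs and 145, 340 and 433 CPM in heifers (-1.07, SE 0.53, limma adjusted p = 0.245), and its other arm miR-503-3p had a log2 fold change of 0.79. miR-424-3p (0.95) and miR-450a (1.29, SE 0.96) did not pass either. Without ANC pool 1 or heifer pool 1 none of the cluster passed, without heifer pool 2 only miR-424-5p did, and without heifer pool 3 there were 4.

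**Figure D3:**
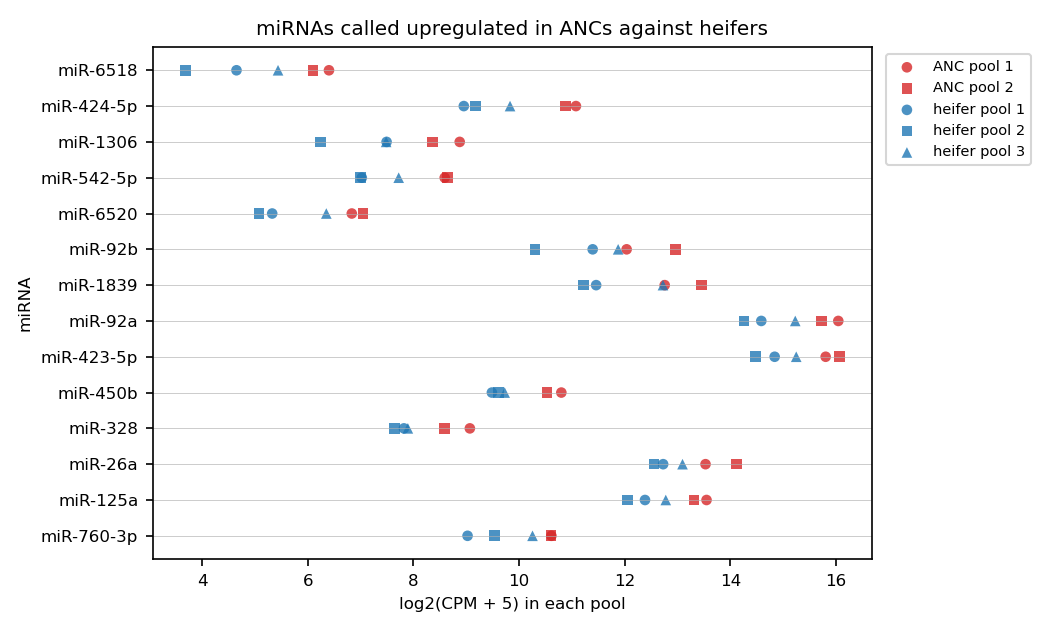
All 14 miRNAs upregulated in ANCs, sorted by log2 fold change, with log2(CPM + 5) on the horizontal axis. Colours and symbols are ANC pools in red and heifer pools in blue, with the shape giving the pool number. Heifer pool 3 (blue triangle) is the heifer pool nearest to the red symbols in 13 of the 14 rows, and for miR-1839 it lies 1.02-fold under the nearest ANC pool.

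Several upregulated miRNAs were highly abundant. miR-92a, a member of the miR-17-92 cluster that acts in cell proliferation and vessel growth, was at 67638 and 54394 CPM in ANCs and at 24613, 19626 and 38447 CPM in heifers (log2 fold change 1.20, SE 0.37, limma adjusted p = 0.128). miR-423-5p, common in body fluids, was at 57306 and 68555 CPM against 29336, 22755 and 38942 CPM (1.08, SE 0.34, limma adjusted p = 0.128). They were at ranks 4 and 2 in ANCs and at ranks 8 and 7 in heifers. miR-92b, of another locus, was at 4199 and 7953 CPM against 2687, 1257 and 3756 CPM (1.31, SE 0.53). miR-1839 was at 6924 and 11243 CPM against 2813, 2388 and 6768 CPM (1.30, SE 0.51). miR-26a, a repressor of EZH2, was at 11835 and 17848 CPM against 6784, 6023 and 8749 CPM (1.03, SE 0.35), and miR-125a was at 11994 and 10157 CPM against 5345, 4256 and 7022 CPM (1.02, SE 0.35). Heifer pool 3 was in each case the highest of the heifers.

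The less abundant upregulated miRNAs were miR-1306, miR-6518, miR-6520, miR-328 and miR-760-3p. miR-1306, which lies within DGCR8, the gene of the RNA-binding partner of Drosha, was at 465 and 325 CPM in ANCs and at 175, 70.7 and 174 CPM in heifers (log2 fold change 1.55, SE 0.49, limma adjusted p = 0.128). miR-6518 was at 79.5 and 63.4 CPM against 20.1, 7.86 and 38.3 CPM, and in heifer pool 2 it was at the smallest visible abundance (1.66, SE 0.63). miR-6520 was at 109 and 127 CPM against 35.1, 28.8 and 76.6 CPM (1.35, SE 0.52). Each of these was higher in both ANC pools than in any heifer pool. miR-328 had a log2 fold change of 1.05, and miR-760-3p was just at the threshold, at 1561 and 1554 CPM against 516, 739 and 1217 CPM (SE 0.43, limma adjusted p = 0.215). None of the 14 upregulated miRNAs passed without ANC pool 1 or heifer pool 1, and without heifer pool 2 only miR-424-5p did.

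Within the miR-17-92 cluster and its paralogues, members went in different directions. Beside miR-92a, miR-18a was downregulated, with 1 and 3 reads in the ANC pools and 17, 31 and 21 reads in the heifer pools (log2 fold change -2.31, SE 0.61, limma adjusted p = 0.0971, which depends on the pseudocount at so few reads). The other 6 tested members were not DE and had log2 fold changes between -0.52 (miR-17-5p) and 0.69 (miR-19a). miR-25, at 42935 and 28489 CPM in ANCs and 23229, 24206 and 25662 CPM in heifers, was among them (0.52, SE 0.32).

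A further set of downregulated miRNAs belonged to none of these groups. miR-191, the most abundant of all downregulated miRNAs, was at 8620 and 6954 CPM in ANCs and at 17533, 21556 and 12706 CPM in heifers (log2 fold change -1.12, SE 0.35, limma adjusted p = 0.128). miR-221 and miR-222, neighbours that repress the cell cycle inhibitor p27 and the KIT receptor, were both downregulated. miR-221 was at 1377 and 3536 CPM against 4713, 4978 and 4104 CPM (-1.05, SE 0.44), and without ANC pool 1 its change was -0.37. miR-222 was at 62.8 and 159 CPM against 241, 275 and 177 CPM (-1.14, SE 0.48). The nearest pools were only 1.16-fold and 1.12-fold apart for this pair. miR-206, a miRNA of skeletal muscle, was the DE member of the muscle list, with 11 and 2 reads in ANCs and 20, 24 and 56 in heifers (-1.71, SE 0.60, limma adjusted p = 0.143), while miR-1 and miR-133a were not DE. miR-147 had 1 and 2 reads against 13, 23 and 15 reads (-2.14, SE 0.58). miR-2387, miR-708 and miR-6120-3p had log2 fold changes of -1.56, -1.37 and -1.10.

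Imprinted miRNAs of the DLK1-DIO3 region were represented by 7 tested members, of which miR-432 and miR-154c were downregulated, beside 12.1% of all tested miRNAs, and none upregulated. miR-432 was at 159 and 396 CPM in ANCs and at 672, 1032 and 507 CPM in heifers (log2 fold change -1.47, SE 0.50, limma adjusted p = 0.138). The log2 fold changes of the 7 ran from -1.47 to -0.16, with a median of -0.87. miR-154c had 5 and 4 reads in ANCs and 11, 29 and 20 reads in heifers. Its change of -1.14 (SE 0.48) passed in 7 of the 11 other settings in which it was tested with no pool left out. No member passed without ANC pool 1, heifer pool 1 or heifer pool 2.

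**Figure D4:**
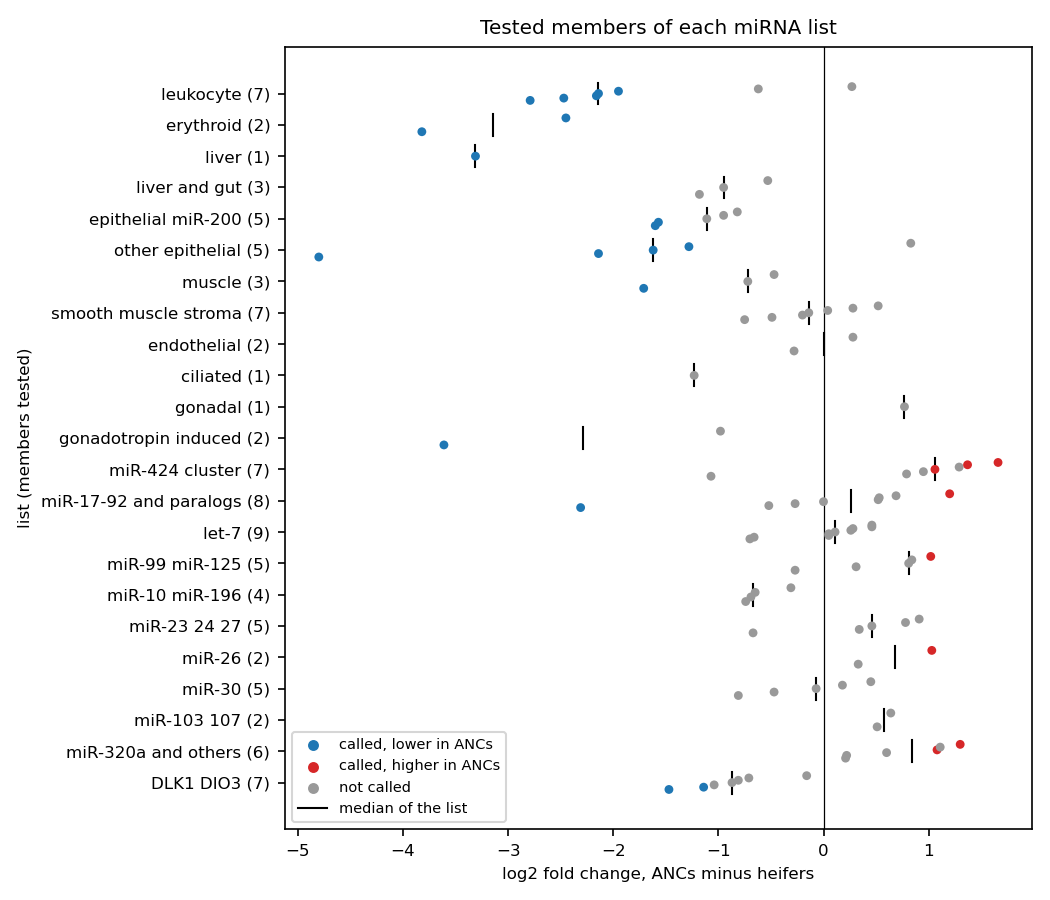
Every tested member of the 23 lists, 1 row per list with the number of tested members in brackets, placed by its log2 fold change of ANCs against heifers. Blue points are downregulated, red points upregulated and grey points not DE, and the black bar is the median of the list. The leukocyte, erythroid, liver and miR-200 rows lie to the left of 0 apart from miR-146b, the miR-424 row lies to the right apart from miR-503-5p, and the let-7 and miR-30 rows straddle 0.

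Many abundant families did not differ detectably between the groups. None of the 9 let-7 members was DE, with log2 fold changes between -0.70 (let-7g) and 0.46 (let-7f and miR-98). let-7a-5p was at 39833 and 46901 CPM in ANCs and at 42833, 45023 and 37680 CPM in heifers (0.05, SE 0.29). let-7b, at rank 2 over all pools, was at 53622 and 48138 CPM against 84172, 104634 and 58820 CPM (-0.66, SE 0.33, limma adjusted p = 0.245). The ANC pools were below every heifer pool for let-7b, but the change was under the threshold. None of 5 tested miR-30 members (median -0.07), of 4 miR-10 and miR-196 members (-0.67), of 5 miR-23, miR-24 and miR-27 members (0.46) or of the pair miR-103 and miR-107 (0.58), known for a role in insulin sensitivity, was DE. miR-103 was at 9658 and 32700 CPM in ANCs and at 10579, 7225 and 19306 CPM in heifers, so the pools of each group spread over those of the other (0.64, SE 0.59). Markers of smooth muscle and stroma (7 tested, median -0.14) and the arms of the endothelial miR-126 (-0.28 and 0.28) had no DE member either. miR-143 was at 22564 and 33223 CPM in ANCs and 35593, 40859 and 18778 CPM in heifers (-0.14, SE 0.41).

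Other abundant miRNAs missed only 1 of the thresholds. miR-320a, made without Drosha, was the most abundant miRNA in ANCs, at 47004 and 109176 CPM, and at rank 5 in heifers, at 28819, 21166 and 59522 CPM. Its mean in ANCs was 2.14-fold that in heifers with an SE of 0.52 on the log2 scale (limma adjusted p = 0.245, unadjusted p = 0.0656), and heifer pool 3 lay between the ANC pools. miR-16b was at 38221 and 34127 CPM against 71612, 75910 and 54463 CPM, which is a separation of the groups with a log2 fold change of -0.88 (SE 0.30, limma adjusted p = 0.138). The remaining miRNAs of the 10 most abundant, miR-25, miR-143, let-7a-5p and let-7i, had changes between -0.14 and 0.52. The 6 tested members of a mixed list (miR-320a, both arms of miR-423, miR-484, miR-1246 and miR-1839) held 13% and 18.1% of reads in the ANC pools and 7.49%, 5.39% and 11.6% in the heifer pools.

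The positions of the miRNA genes were then compared. Every one of the 267 miRNAs was matched by name to the RefSeq annotation of assembly ARS-UCD2.0, and the 39 matched to several genes, miR-92a among them, were left out of the grouping. The remaining miRNAs were taken as neighbours when within 10 kb of each other, and arms of a single hairpin counted as neighbours too. The groups of miR-22, miR-126, miR-151, miR-423, miR-1343, miR-1388 and miR-2483 held only such arms, and that of miR-423 held a DE miRNA. Of 30 neighbour groups with at least 2 tested members, 11 held a DE miRNA, 3 held at least 2 (miR-424, miR-450b and miR-542-5p, then miR-182 and miR-183, and last miR-221 and miR-222), and none held both an upregulated and a downregulated one. The downregulated miR-18a and the upregulated miR-92a, members of the same cluster, were therefore not placed in 1 group. Of the 12 hairpins with both arms tested, miR-424 and miR-423 had 1 arm DE, the 5p arm in both, and their 3p arms changed by 0.95 and 0.60 without passing. The build of the deposited files is UMD3.1, so no positions of this assembly are given.

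The RNA of replicates 1 was measured on 1 day and that of replicates 2 and 3 on the next. Taken by day, ANC pool 1 against heifer pool 1, and ANC pool 2 against heifer pools 2 and 3, gave the same sign on both days for all 40 DE miRNAs. As the groups did not overlap for any of them, no pairing of these pools could have given another sign. The difference was at least 1 on the log2 scale for 34 of them on the first day and for 30 on the second. For miR-122 it was -5.67 and -1.30. The values within a day have no test. When that day entered the limma fit as a covariate, it called 42 miRNAs, 19 upregulated and 23 downregulated, and 35 of these were among the 40.

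The levels of the 40 DE miRNAs were then set beside those of lactating cows in positive energy balance throughout (always positive cows, APCs, 2 pools of 2 cows at weeks 5 and 6) and of transient cows (TCs, 3 pools of 11 cows at weeks 5 and 6, in negative balance at that time). All 40 were tested in a fit of these 10 libraries, whose CPM are scaled over 10 pools and so differ slightly from those above. The contrasts with heifers in the 3 cow groups share the heifer pools, and the 40 miRNAs were chosen with the same ANC pools, so their levels beside the other cows are a description. The direct tests of ANCs against APCs and of ANCs against TCs called 0 of 243 miRNAs each (0.0%). Before adjustment, limma's p-value was under 0.05 for 28 (11.5%) and 24 (9.88%) of them, edgeR called 0 and 0, and DESeq2 called 15 and 2.

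The ANC mean was the lowest of the 4 groups for 24 of the 26 downregulated miRNAs and the highest for 7 of the 14 upregulated ones. As these miRNAs were chosen with the same ANC pools, such a place of the ANCs was partly built in. Its share over all miRNAs was not counted. The order of the groups otherwise varied by miRNA. miR-150 was at 84.2 and 219 CPM in ANCs, 423 and 725 CPM in APCs, 493, 373 and 570 CPM in TCs and 663, 897 and 962 CPM in heifers. Its log2 fold change was -1.98 (SE 0.50, limma adjusted p = 0.269) against APCs and -1.75 (SE 0.45, limma adjusted p = 0.265) against TCs. miR-223 was at 68.9 and 142 CPM in ANCs, 281 and 364 CPM in APCs, 201, 189 and 265 CPM in TCs and 596, 1219 and 609 CPM in heifers. For both, the ANC pools were the lowest and the heifer pools above all or nearly all others.

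Other miRNAs separated heifers from the cows rather than ANCs from the rest, or varied within groups. miR-205 was at 337 and 1317 CPM in ANCs, 637 and 1095 CPM in APCs, 1357, 2226 and 600 CPM in TCs and 3186, 4354 and 2286 CPM in heifers, so every heifer pool was above every cow pool. For miR-184 APCs (217 and 51.5 CPM) lay between the ANC pools (11.5 and 271 CPM), and 1 TC pool reached 1309 CPM against 60.3 and 26.5 CPM in the others. miR-486 had its highest mean in APCs, with 8063 and 1923 CPM, against 3462, 1947 and 1540 CPM in heifers. Upregulated miRNAs were mixed too. miR-6518 was at 72.7 and 51.6 CPM in ANCs, 61.0 and 67.6 CPM in APCs and 67.0, 41.2 and 66.3 CPM in TCs, all above the heifers at 19.1, 7.33 and 33.8 CPM. miR-424-5p was at 1970 and 1530 CPM in ANCs, but TC pool 3 was higher at 2796 CPM.

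**Figure D5:**
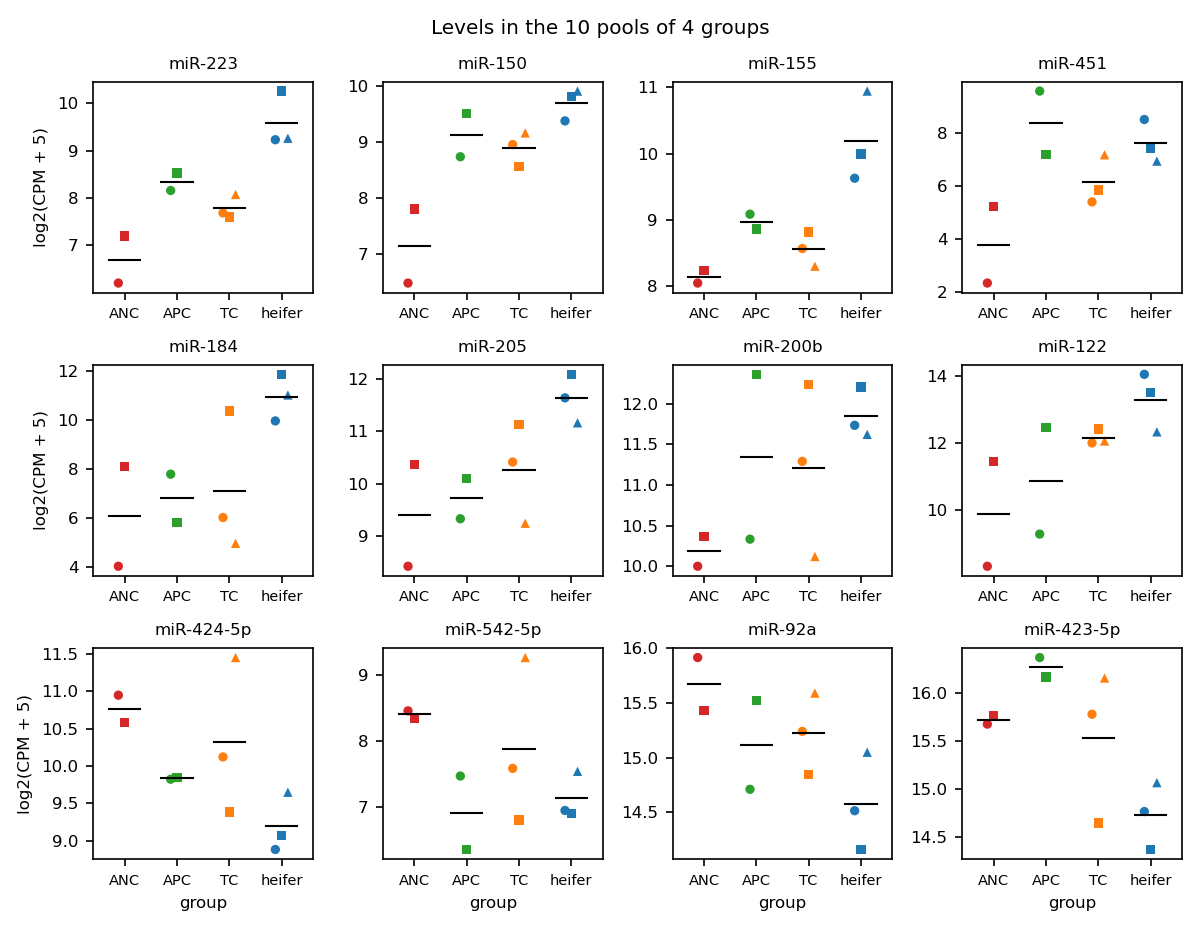
Levels of 12 DE miRNAs in the pools of ANCs, APCs, TCs at weeks 5 and 6 and heifers, as log2(CPM + 5) scaled over 10 pools. Symbols are pools (circle, square and triangle for pools 1, 2 and 3), black bars are group means, and each panel has its own vertical scale. ANCs lie lowest for miR-223 and miR-150, heifers lie above all cow pools for miR-205, and for miR-424-5p and miR-542-5p the highest pool is TC pool 3.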

How the data were processed

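Total RNA of EVs, isolated from FF by ultracentrifugation, was made into libraries with a QIAseq miRNA kit and sequenced on a NextSeq instrument. The authors trimmed adaptors (Cutadapt 1.11), mapped reads to UMD3.1 (Bowtie2 2.2.2), annotated them against miRBase and normalized them by the trimmed mean of M-values (TMM). The deposited values are TMM-normalized CPM, not logged, and where a library's deposited total exceeds what CPM can sum to the unit was recorded as signal. Whether molecular identifiers of the kit were counted is not given in the sources used here.

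As each group was deposited on the scale of its own pairwise comparison, read numbers were worked out from the spacing of low values (all values whole within 0.1 read in the 5 libraries, with 99 low values to judge from in heifer pool 2 and more in the others) and rescaled to each other by TMM factors from the 267 shared miRNAs. miRNAs were kept with filterByExpr (minimum count 10, minimum total 15) and compared with limma 3.58.1 (mean-variance trend, Benjamini-Hochberg adjustment) on log2(CPM + 5), which understates changes of low miRNAs. edgeR 4.0.16, DESeq2 1.42.0, other pseudocounts, filters, scalings and single pools left out were alternatives. The recovery of reads and the limma fit of the 5 libraries were tested on simulated data, and the other fits were not. The 4-group fit used 10 libraries. Per-pool values are given for the 10 largest changes in each direction, list members and the 10 most abundant miRNAs. Those of miR-147, miR-191, miR-221, miR-222 and miR-760-3p, outside this rule, were chosen after their values were seen. The miRNAs, lists and tests were chosen with earlier results of these data known. miRNA sequences were not used here.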

Additional observations from a re-analysis of the deposited data

Results flagged for a closer look

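Among the DE miRNAs and the members of the lists, 6 were flagged on the scale of the 10 pools. For each, both ANC pools lay on one side of all heifer pools and every pool of another cow group on the opposite side. On the scale of the 5 pools, 2 of them overlapped between ANCs and heifers. miR-98 was at 402 CPM in ANC pool 1 and 404 CPM in heifer pool 3. miR-27a-3p was at 658 CPM in ANC pool 2 and 621 CPM in heifer pool 2. The differences between the cow groups, from the fit of 10 libraries, did not pass limma's adjusted threshold. Against APCs, ANCs were higher by a log2 fold change of 0.77 for let-7f (adjusted p = 0.346), 1.03 for miR-31 (0.295), 1.18 for miR-328 (0.346) and 0.83 for miR-98 (0.419). Against TCs at weeks 5 and 6, they were higher by 0.78 for let-7f and by 0.90 for miR-98 (adjusted p = 0.413 for both), and the log2 fold change was -1.44 for miR-221 (0.354) and -1.38 for miR-27a-3p (0.378).

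miR-31 was at 3914 and 2737 CPM in ANCs, 1579 and 1627 CPM in APCs, and 2060, 1896 and 1932 CPM in heifers. miR-221 was at 1259 and 2879 CPM in ANCs, 5192, 5188 and 5112 CPM in TCs, and 4483, 4645 and 3620 CPM in heifers. Outside these sets and seen afterwards, the same held for miR-374b against APCs, for miR-6119-5p against TCs and for miR-374a against both. miR-374a was at 88.0 and 129 CPM in ANCs, 40.7 and 32.2 CPM in APCs, 33.5, 32.9 and 33.1 CPM in TCs, and 71.5, 83.1 and 52.0 CPM in heifers. Its log2 fold change was 1.44 against APCs (limma adjusted p = 0.295) and 1.55 against TCs (0.265). The margin on the side of the other cow group was small for most of these. When these results were flagged, groups of 2 and 3 pools were not examined for single pools far from the rest.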

How the results depend on the processing

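Every one of the 40 DE miRNAs kept its direction in all settings in which it was tested, which groups without overlap nearly fix beforehand. Leaving out 1 pool at a time gave 0 to 54 DE miRNAs for ANCs against heifers (0 to 29 upregulated, 0 to 34 downregulated), 0 to 33 against APCs and 0 to 8 against TCs, where a lone pool is assumed to vary like the other groups. Apart from the replicate block, other settings left the total of 40 between 29 and 46, and for the upregulated alone DESeq2 size factors gave 9 and the 10-library fit 7, while at least 10 reads in every library left 17 downregulated. Against APCs, 3 were called with a pseudocount of 1 CPM, 5 with at least 10 reads, 44 with scaling to total reads, 15 with DESeq2 and 6 with TMM over the tested miRNAs. Against TCs, 2 were called with at least 10 reads and 2 with DESeq2. The causes were not tested. The 10-library fit and TMM over the tested miRNAs (41 DE miRNAs against heifers) were chosen after seeing the data. Pools numbered 1 share a day of RNA measurement, as do those numbered 2 and 3, and no other link between same-numbered pools is stated. Their deviations had a correlation of 0.059 over 215 miRNAs in 2 pairs, so the numbers were not taken as a pairing. A replicate block, in which heifer pool 3 is alone and drops out, gave 65 DE miRNAs (31 upregulated and 34 downregulated) against heifers, 34 against APCs and 29 against TCs. The depth of ANC pool 2, 145030 reads, limits what can be seen of miRNAs under 20.69 CPM.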

Other observations

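Of the miRNAs listed for both groups, 254 had at least 1 read in every pool. There were 10 with a read in every heifer pool that were missed in 1 ANC pool, among them miR-138 (3 and 0 reads in ANCs, and 12, 13 and 7 in heifers) and miR-1343-5p (7 and 0 against 12, 18 and 9), and 1 the other way round, miR-7860. Among the 267 miRNAs listed for both groups, none was missing from every pool of one group and present in every pool of the other.

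Some intermediate values went with single pools. miR-130a was at 6129 and 18292 CPM in ANCs and at 2487, 2459 and 9982 CPM in heifers (log2 fold change 1.43, SE 0.71, limma adjusted p = 0.245), and miR-873 at 2499 and 5669 CPM against 862, 521 and 5539 CPM (1.47, SE 0.91, limma adjusted p = 0.313). Both were DE without heifer pool 3. The miRNAs of both paragraphs were named after their values were seen.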
